A study of Mus musculus with 6 samples.

Results

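Isl1, Nkx2-5, Mef2c, Hand1, Hand2 and Prdm1 encode transcription factors that build the outflow tract of the embryonic heart, the muscular tube through which blood leaves the ventricles. They were taken as all probe sets whose platform annotation names 1 of these 6 genes and no other gene, which gave 14 of the 45037 probe sets that are not controls, for 6 of 18193 named genes. Of these, 5 belong to Mef2c, 3 to Hand2, 2 each to Isl1 and Hand1, and 1 each to Nkx2-5 and Prdm1. The arrays compare superior with inferior outflow tract tissue cut from hearts of CD1 mouse embryos at embryonic day 10.5. There were 3 superior pools and 3 inferior pools, numbered 1, 6 and 7 in both regions, and no group carries a mutation or treatment. Each pool combined the pieces of 6 littermates per the sample labels, whereas the series text gives 7 pieces of each domain. No label gives each pool a litter of its own, so variation of the superior to inferior difference among the 3 pools may be technical. The limma fit also borrows variance from the other probe sets. Its standard errors and p-values therefore do not measure the spread of a gene over these 3 pools alone.

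The outflow tract lengthens by taking in cells of the second heart field, a population of progenitors in the pharyngeal mesoderm behind the heart. Isl1, a LIM-homeodomain protein, marks these progenitors and is turned down as they become heart muscle. Nkx2-5 is a homeodomain factor and Mef2c a MADS-box factor, both active in progenitors and in muscle, and Mef2c is a direct target of Isl1 in the anterior second heart field. Hand1 and Hand2 are basic helix-loop-helix factors of the heart, and Hand2 also serves neural crest cells that enter the outflow tract. Prdm1, a zinc finger repressor also known as Blimp1, acts in pharyngeal and second heart field progenitors.

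RefSeq promoter windows, from 250 bases before to 50 bases after an annotated start on build GRCm38.p6, were matched by symbol for 5 of the 6 genes, in 7 windows. The windows of Isl1 and Nkx2-5, which had lower signals in superior pools, and of Hand2, which had near-equal signals, are shown because the contrast between these genes recurs through the results. The Isl1 window lies at chr13:116309639-116309938 on the minus strand, the Nkx2-5 window at chr17:26841516-26841815 on the minus strand, and the Hand2 window at chr8:57320733-57321032 on the plus strand. Capitals mark TAAT, the core bound by homeodomain proteins, on either strand (ATTA on the other), and CANNTG, the E-box core of helix-loop-helix dimers, which reads alike on both strands.
Isl1: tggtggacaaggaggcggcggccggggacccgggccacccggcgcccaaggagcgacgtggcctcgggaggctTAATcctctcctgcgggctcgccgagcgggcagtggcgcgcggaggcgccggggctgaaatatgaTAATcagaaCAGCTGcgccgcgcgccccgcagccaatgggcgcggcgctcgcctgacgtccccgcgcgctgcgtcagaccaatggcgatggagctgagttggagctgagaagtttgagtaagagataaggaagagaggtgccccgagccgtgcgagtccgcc
Nkx2-5: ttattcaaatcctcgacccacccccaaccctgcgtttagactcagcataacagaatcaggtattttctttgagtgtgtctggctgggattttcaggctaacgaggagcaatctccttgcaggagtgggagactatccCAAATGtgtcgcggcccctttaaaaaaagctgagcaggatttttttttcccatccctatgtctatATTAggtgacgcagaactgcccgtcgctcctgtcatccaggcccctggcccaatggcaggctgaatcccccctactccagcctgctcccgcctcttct
Hand2: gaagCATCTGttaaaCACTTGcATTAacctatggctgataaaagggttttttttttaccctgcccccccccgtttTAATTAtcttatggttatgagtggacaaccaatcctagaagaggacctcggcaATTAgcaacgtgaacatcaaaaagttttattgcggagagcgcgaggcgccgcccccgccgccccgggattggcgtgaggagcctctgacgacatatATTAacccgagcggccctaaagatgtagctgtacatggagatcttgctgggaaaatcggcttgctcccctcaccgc
The Isl1 window holds 2 TAAT cores and 1 CANNTG, the Nkx2-5 window 1 of each, and the Hand2 window 5 TAAT cores, of which a pair overlap, and 2 CANNTG. Of all 32851 promoter windows, 58.0% hold TAAT and 72.3% hold CANNTG, so these letters are common. The Mef2c windows, not shown, hold 5, 6 and 1 TAAT cores. A relation of such cores to the region differences was not tested. AAGTG, the core bound by NKX2 proteins, was found in the Hand2 window and in every Mef2c window. It was not in those of Isl1, Nkx2-5 and Prdm1, and is in 46.4% of all windows on either strand. Its match in the Hand2 window lies within the second CANNTG. The MEF2 box, present in 0.557% of windows, was in 0 of the 7 member windows. A match is a run of letters and not a measured site.

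Values are MAS5 signals, which are linear, are scaled by the authors to a common level in each array and have no unit. A signal above 8.0, the highest among 27 Bacillus control probe sets, is called above background here. The test took in probe sets with a mean log2 signal above the median of all probe sets, a signal of about 15.1, and 11 of the 14 member probe sets passed, covering 5 of the 6 genes. The 3 that did not pass were the Prdm1 probe set and the dimmest probe sets of Hand1 and Hand2. Over all probe sets, between 58.4% and 63.1% lay above background in the 6 arrays. Superior 6 had hybridisation control signals 1.59 times the median array. The 3′ to 5′ signal ratio of the Gapdh controls, a sign of RNA quality, was 1.30 in superior 1 and 2.21 in inferior 1, against 0.832 to 0.899 in the arrays of pools 6 and 7.

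Regions were compared within each pool number, as superior minus inferior, with limma over 22518 probe sets and Benjamini-Hochberg adjustment. At an adjusted p of 0.05, 0 of the 11 tested member probe sets were called, where 0.16% of all tested probe sets were, 0.0666% as lower and 0.0933% as higher in superior pools. On average 9 were lower, against 55.1% of all tested probe sets. At an unadjusted p of 0.05, 6 member probe sets were lower in superior pools, belonging to Isl1, Nkx2-5 and Mef2c, and 0 were higher, against 6% lower and 4.98% higher of all tested probe sets. In all 3 pools, 8 of the 11 were lower in the superior array than in the inferior array of the same number, and 0 were higher in all 3, against 19% and 15% of all tested probe sets. Those 8 are not independent, since 2 belong to Isl1, 4 to Mef2c, 1 to Nkx2-5 and 1 to Hand2. The median log2 difference was -0.22 over the 11 member probe sets and -0.02 over all tested ones. The superior and inferior signals overlapped across pools for every member, whereas all 3 superior signals lay below all 3 inferior signals for 4.56% of tested probe sets and above them for 4.65%. Without the pool number in the fit, limma called 0 of the 11 and 0% of all tested probe sets. At an unadjusted p of 0.05 that fit gave 0 of the 11, against 792 of the 22518 tested probe sets. In pooled tissue, fewer cells that express a gene and less RNA per cell cannot be told apart.

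**Figure D1:**
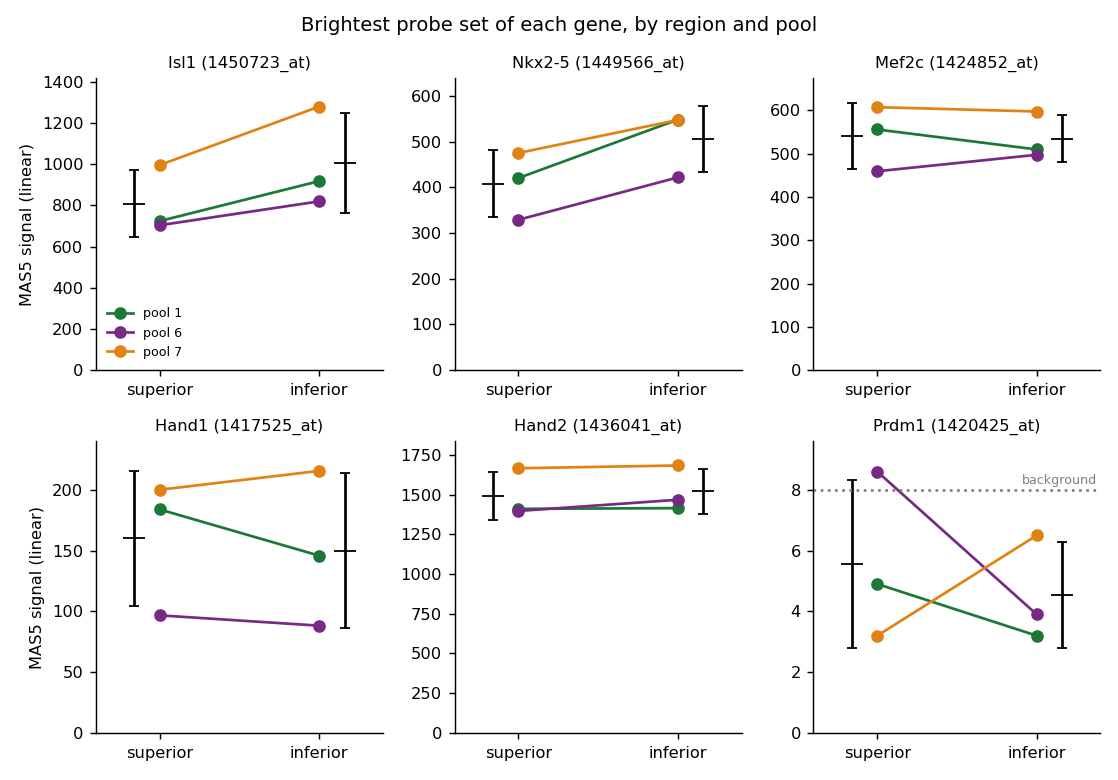
MAS5 signal (linear axis from 0) of the brightest probe set of each gene in superior and inferior pools, with lines joining arrays of the same pool number and black bars for the mean and SD of 3 pools. Lines slope up toward the inferior side in all 3 pools for Isl1 and Nkx2-5, are near flat for Hand2, and for Prdm1 1 of 6 signals lies above the background level of 8.0.

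Isl1 was lower in the superior pools by both of its probe sets. For the brighter one the signals of pools 1, 6 and 7 were 723.5, 703.3 and 995.4 in superior tissue, against 917.3, 819.2 and 1278.9 in inferior tissue. Pool 7 was highest in both regions, and its superior signal exceeded the inferior signals of the other two pools, so the regions separate only within a pool. The means were 807 ± 163 in superior and 1005 ± 242 in inferior pools (SD, n = 3 each), and the superior level was 0.808 of the inferior level. On the log2 scale the difference was -0.31 ± 0.08 (SE; 95% interval -0.50 to -0.12; limma adjusted p = 0.293). By pool it was -0.34, -0.22 and -0.36 in pools 1, 6 and 7.

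The second Isl1 probe set had signals of 296.4, 233.8 and 401.8 in superior pools 1, 6 and 7, against 379.8, 329.3 and 503.4 in the inferior pools. It repeats the order of the first, with pool 7 highest and pool 6 lowest in both regions. Its log2 difference was -0.39 ± 0.09 (95% interval -0.60 to -0.18; limma adjusted p = 0.234), and by unadjusted p it ranked 234 among the 22518 tested probe sets, the highest rank of any member. Both probe sets derive from 1 source sequence in the platform annotation, so they are not separate evidence of the region difference. Over the other settings tried with all 6 arrays or without 1 pool, the brighter probe set's difference lay between -0.36 and -0.27, and its lowest limma adjusted p was 0.0730, without pool 6. With single arrays left out and no pool term, it reached -0.12 without inferior 7 and -0.47 without superior 7.

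Nkx2-5, the homeodomain partner of GATA and T-box factors in heart muscle, had 1 probe set. Its signals in pools 1, 6 and 7 were 420.2, 328.9 and 475.0 in superior tissue, against 547.9, 421.6 and 547.1 in inferior tissue. Every superior array was below its inferior counterpart, and pool 6 was lowest in both regions. The means were 408 ± 73.8 in superior and 506 ± 72.7 in inferior pools (SD, n = 3 each), a superior level of 0.805 of the inferior one (log2 -0.31 ± 0.09, 95% interval -0.52 to -0.11; limma adjusted p = 0.313). The pool differences were -0.38, -0.36 and -0.20. The log2 differences of Isl1 and Nkx2-5 differed from each other by 0.04, 0.14 and -0.16 in pools 1, 6 and 7, so neither was lower than the other in all pools.

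Mef2c gave unlike values across its 5 probe sets, of which 4 were lower in superior tissue in all 3 pools and the brightest was not. The brightest, 1424852_at, had signals of 555.5, 459.1 and 607.0 in superior pools 1, 6 and 7, against 509.5, 497.1 and 597.0 in inferior pools. The superior array was higher in pools 1 and 7 and lower in pool 6. Its log2 difference was 0.01 ± 0.09, with a 95% interval of -0.19 to 0.22 (limma adjusted p = 0.978), and its sign turned to -0.02 under cyclic loess scaling and to -0.05 without pool 1.

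The next brightest Mef2c probe set, 1421027_a_at, had signals of 330.5, 500.6 and 566.7 in superior pools, against 462.0, 612.5 and 702.4 in inferior pools. All 3 superior arrays were below their counterparts, and pool 1 was lowest in both regions. Its difference was -0.36 ± 0.09 (95% interval -0.56 to -0.16; limma adjusted p = 0.255). In the Affymetrix naming, the suffix _a marks probes that match several transcripts of 1 gene. The other three gave log2 differences of -0.26 ± 0.10, -0.22 ± 0.09 and -0.17 ± 0.11, none called. In the same arrays, the difference of 1421027_a_at was below that of 1424852_at by -0.60, -0.18 and -0.33 in pools 1, 6 and 7. This gap was negative in all 3 pools for each of the 4 dimmer probe sets, with means between -0.37 and -0.18. Of the 5, 3 share 1 source sequence in the annotation, and these include the brightest and a pair that were lower. The transcripts that each probe set matches were not analysed here.

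**Figure D2:**
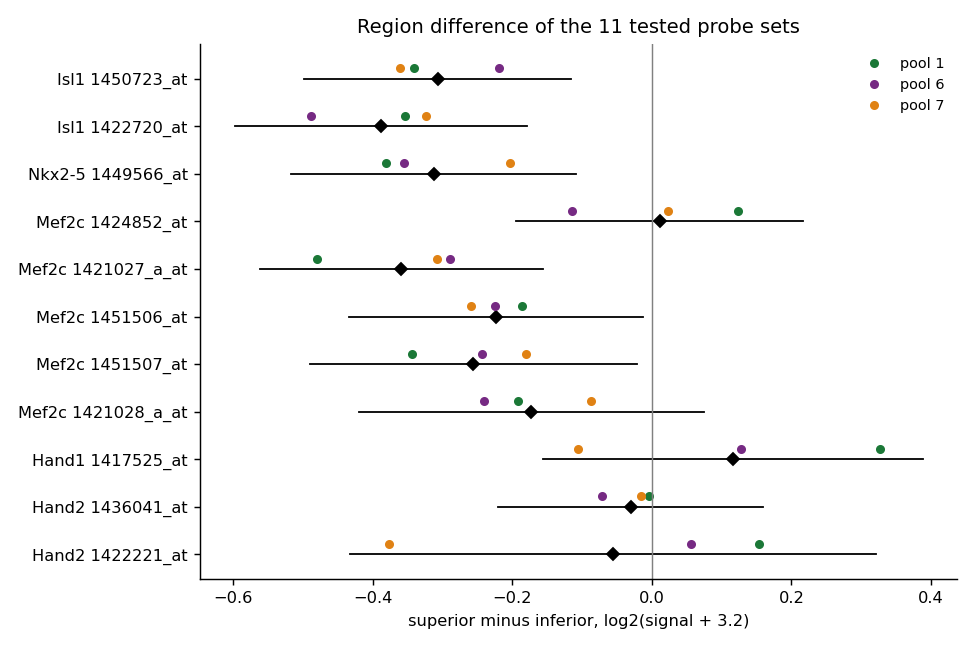
Log2 difference of superior minus inferior signal for the 11 tested probe sets. Diamonds and lines are the limma estimate and its 95% interval (not adjusted for the number of tests) and coloured points are the 3 pools. All points of Isl1 and Nkx2-5 and of 4 Mef2c probe sets lie left of 0, while those of Mef2c 1424852_at, Hand1 and the dimmer Hand2 probe set lie on both sides.

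Hand1, which in the heart is best known from the left ventricle and outflow tract muscle, had a brighter probe set with signals of 183.8, 96.7 and 200 in superior pools 1, 6 and 7, against 145.8, 88.2 and 215.5 in inferior pools. The superior array was higher in pools 1 and 6 and lower in pool 7. The difference was 0.12 ± 0.12 on the log2 scale, and its 95% interval of -0.16 to 0.39 leaves room for a superior level between 0.898 and 1.31 of the inferior one (limma adjusted p = 0.759). The dimmer Hand1 probe set was not tested, and its signals of 1.6, 27.9 and 24.7 in superior and 7.0, 11.3 and 47.0 in inferior pools lay above background in 4 of 6 arrays.

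Hand2, which is needed for growth of the right ventricle and for neural crest cells, had 3 probe sets that behaved unlike each other. The brightest had signals of 1410.7, 1397.4 and 1666.4 in superior pools 1, 6 and 7, against 1415.3, 1467.9 and 1683.8 in inferior pools. Each superior array was slightly below its counterpart, with log2 differences of -0.005, -0.071 and -0.015. The estimate was -0.03 ± 0.08, and the 95% interval of -0.22 to 0.16 covers superior levels between 0.859 and 1.12 of the inferior one (limma adjusted p = 0.930). The sign turned to 0.01 under 75th percentile scaling, and the difference was -0.10 under quantile normalization and -0.12 under cyclic loess. The second Hand2 probe set had signals of 26.5, 44.4 and 58.8 in superior and 23.5, 42.6 and 77.3 in inferior pools, and its difference of -0.06 ± 0.17 had opposite signs in pool 7 and in the other two. The third Hand2 probe set lay above background in 0 of 6 arrays, with signals of 0.9, 0.7 and 0.7 in superior and 0.3, 4.8 and 1.6 in inferior pools.

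Measured in the same arrays by the brightest probe set of each gene, the differences of Isl1 and Nkx2-5 lay below that of Hand2 in all 3 pools. As the Hand2 difference was near 0, this largely restates that both were lower in all 3 pools, as 19% of all tested probe sets were. The dimmer Hand2 probe set 1422221_at had -0.377 in pool 7, below the -0.361 of Isl1 there. The Isl1 difference was below the Hand2 difference by -0.34, -0.15 and -0.35, a mean of -0.28 ± 0.11 (SD, n = 3 pools). The Nkx2-5 difference was below it by -0.38, -0.28 and -0.19, a mean of -0.28 ± 0.09. Hand1 minus Hand2 gave 0.33, 0.20 and -0.09, with no common sign. These gaps describe 3 pools and were not tested.

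Prdm1 was near or below the background level in most arrays. Its probe set had signals of 4.9, 8.6 and 3.2 in superior pools 1, 6 and 7, against 3.2, 3.9 and 6.5 in inferior pools. Only superior 6 exceeded 8.0, so 1 of 3 superior and 0 of 3 inferior arrays were above background. The probe set failed the filter on dim signals, and a region difference was not measurable at this signal.

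Levels varied between pools as well as between regions. Of the summed squares of the log2 values over 6 arrays, the pool number (2 degrees of freedom) took between 59.4% and 96.6% and the region (1 degree of freedom) between 0.153% and 38.2% over the 11 probe sets. The median share of the pool number was 78.3%, against 59.3% over all tested probe sets, and that of the region was 21.4%, against 9.86%. The median range between pool means was 0.57 on the log2 scale, against 0.34 over all tested probe sets. The region share was highest for Nkx2-5, at 38.2%, followed by the Isl1 probe sets at 31.5% and 27.3%.

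The pools were not ordered alike for all genes. Pool 7 had the highest mean of both regions for 10 of the 11 probe sets, the exception being Mef2c 1451506_at. Pool 6 was lowest for Isl1, Nkx2-5 and Hand1, and also for Mef2c 1424852_at and 1451506_at, and the Hand1 mean stood at -0.65 relative to the gene's mean in pool 6 and at 0.49 in pool 7. Pool 1 was lowest for Hand2 and for Mef2c 1421027_a_at, 1421028_a_at and 1451507_at, with -0.40, -0.42 and -0.20 for the 3 Mef2c probe sets. Pool 1 is also the pool with the high Gapdh 3′ to 5′ ratios, and the part of RNA quality in these levels was not tested. Without pool 1 the region differences were -0.29 for Isl1 and -0.28 for Nkx2-5, and without pool 6, whose superior array had the high control signals, -0.35 and -0.29. Without pool 1 the unadjusted p-values were 0.0733 for Isl1 and 0.0907 for Nkx2-5 in limma.

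**Figure D3:**
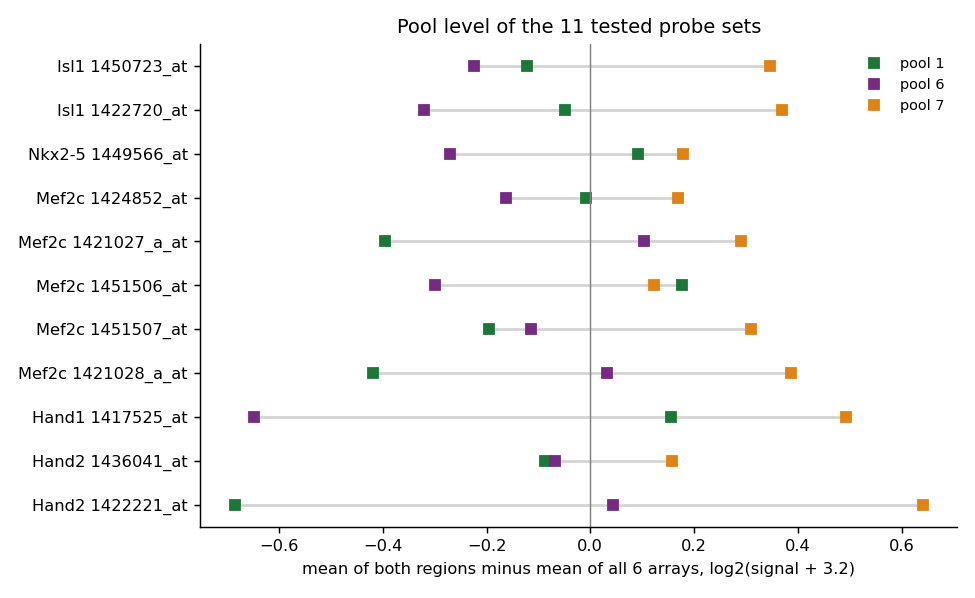
Mean log2 level of each pool over both regions, relative to the mean of all 6 arrays, for the 11 tested probe sets. Orange squares (pool 7) lie furthest right for 10 probe sets, and the spread between pools reaches 1.14 for Hand1 1417525_at and 1.33 for Hand2 1422221_at.

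Among genes that work with or below these factors, a few were called and most were not. For a listed gene the brightest of its tested probe sets was taken. Of all 22518 tested probe sets, 55.1% were lower in superior pools on average and 0.16% were called. Without the pool number in the fit, 0 genes of these lists were called. Of 20 listed second heart field regulators 12 were tested, of which 8 were lower in superior pools and 4 higher (median log2 difference -0.22). The 2 called were both higher, Aldh1a2 and Tcf21, and both are also epicardial genes. Aldh1a2, which makes retinoic acid, had signals of 100.2, 140.6 and 48.2 in superior pools 1, 6 and 7, against 28.0, 37.3 and 23.5 in inferior pools (limma adjusted p = 0.0411). Its regions did not overlap. Tcf21, a helix-loop-helix factor, had 362.5, 461.6 and 310.8 in superior, against 239.5, 266.5 and 192.0 in inferior pools (limma adjusted p = 0.0479), again without overlap.

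Second heart field genes with the direction of Isl1 did not pass the test. At an unadjusted limma p under 0.05, 5 of the 12 were lower in superior pools, against 6% of all tested probe sets. Fgf8, a growth factor gene of the second heart field and also on the target list, had the smallest p of these, with signals of 17.9, 11.5 and 25.6 in superior pools 1, 6 and 7, against 44.3, 23.4 and 57.2 in the inferior ones (-1.03 ± 0.17; limma adjusted p = 0.0932). It was lower in superior tissue in all 3 pools, and the regions overlapped. Bmp4, a ligand gene downstream of Isl1, had signals of 1664.8, 2156.1 and 2292.7 in superior pools 1, 6 and 7, against 2092.9, 2619.5 and 2466.9 in the inferior ones (difference -0.24 ± 0.09, limma adjusted p = 0.416). Tdgf1, a co-receptor of Nodal found in outflow tract muscle, had a difference of -0.71 ± 0.18 (adjusted p = 0.260), and its signals ranged from 7.2 to 94.6 in superior and from 9.8 to 178.2 in inferior pools.

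Of 20 listed partner transcription factors 19 were tested, 14 lower in superior pools and 5 higher (median -0.09). The 1 called was Irx4, a homeobox gene of ventricular muscle, with signals of 89.6, 33.8 and 58.7 in superior, against 11.2, 10.4 and 11 in inferior pools (limma adjusted p = 0.0294). Gata4, which binds heart promoters with Nkx2-5, had means of 674 ± 81.8 in superior and 678 ± 103 in inferior tissue (SD, n = 3 each), a difference of -0.00 ± 0.08. Myocd, a cofactor of the MADS-box factor SRF, had 255 ± 39.0 in superior and 307 ± 34.0 in inferior tissue (-0.27 ± 0.09; adjusted p = 0.386).

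The families closest to the members showed no call other than Tcf21. Of the 7 listed MEF2 genes and class IIa histone deacetylases, which repress MEF2 proteins, 6 were tested, 3 lower and 3 higher, with a median of -0.02. The smallest p among them were those of Hdac9 (0.31 ± 0.16; adjusted p = 0.509) and Hdac7 (-0.19 ± 0.12; 0.589), and the Mef2c relative Mef2a had 0.08 ± 0.09. Of 12 helix-loop-helix partners and relatives of the HAND proteins 11 were tested, 8 lower and 3 higher (median -0.07). The E-proteins that pair with HAND factors gave -0.07 ± 0.10 for Tcf3, 0.04 ± 0.10 for Tcf4 and -0.09 ± 0.09 for Tcf12.

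Of 10 LIM-domain partners and relatives of Isl1, 9 were tested, 4 lower and 5 higher (median 0.10), and 0 were called. Lhx9, a LIM-homeodomain gene, had the smallest p, with signals of 34.7, 29.2 and 21.5 in superior and 10.9, 10 and 7.6 in inferior pools (1.31 ± 0.20; limma adjusted p = 0.0625). Its regions did not overlap. Isl2, the closest relative of Isl1, had 12.4, 7.5 and 13.8 in superior and 16.5, 21.3 and 25.8 in inferior pools (-0.77 ± 0.24; limma adjusted p = 0.345), also without overlap. Ldb1, the cofactor of LIM-homeodomain proteins, had 0.10 ± 0.13. Of 14 genes for co-repressors of Prdm1 and other Prdm proteins 13 were tested, 9 lower and 4 higher (median -0.08), with 0 called. Those with the smallest p were Tle3 (-0.31 ± 0.10; 0.370) and Prdm6 (0.38 ± 0.18; 0.487).

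Genes listed as heart targets of the members went both ways. Of 19 listed genes 16 were tested, 8 lower in superior pools and 8 higher (median 0.01). At an unadjusted limma p under 0.05, 5 were lower and 6 higher, against 6% and 4.98% of all tested probe sets. The 5 were Fgf8, Bmp4, Sema3c, Myocd and Xirp1, and the 6 were Nppa, Nppb, Myl2, Myl7, Actc1 and Csrp3. The 1 called was Sema3c, a secreted guidance factor needed for outflow tract septation, with signals of 1236.5, 1560.5 and 1135.7 in superior, against 2364.6, 2260.0 and 1815.6 in inferior pools (limma adjusted p = 0.0484). The muscle targets Nppa, Nppb and Csrp3 had positive differences that were not called. Nppa, which encodes atrial natriuretic peptide and is activated by Nkx2-5 and Hand factors, had 147.4, 45.9 and 295.4 in superior, against 29.3, 16 and 30.4 in inferior pools (2.24 ± 0.30; limma adjusted p = 0.0622). Nppb had a difference of 0.56 ± 0.09 (limma adjusted p = 0.0785), and Csrp3, a muscle LIM protein, one of 0.57 ± 0.10 (0.106). Smyd1, a muscle methyltransferase that Mef2c activates, had -0.04 ± 0.11 and Popdc2, an Nkx2-5 target, 0.04 ± 0.10.

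**Figure D4:**
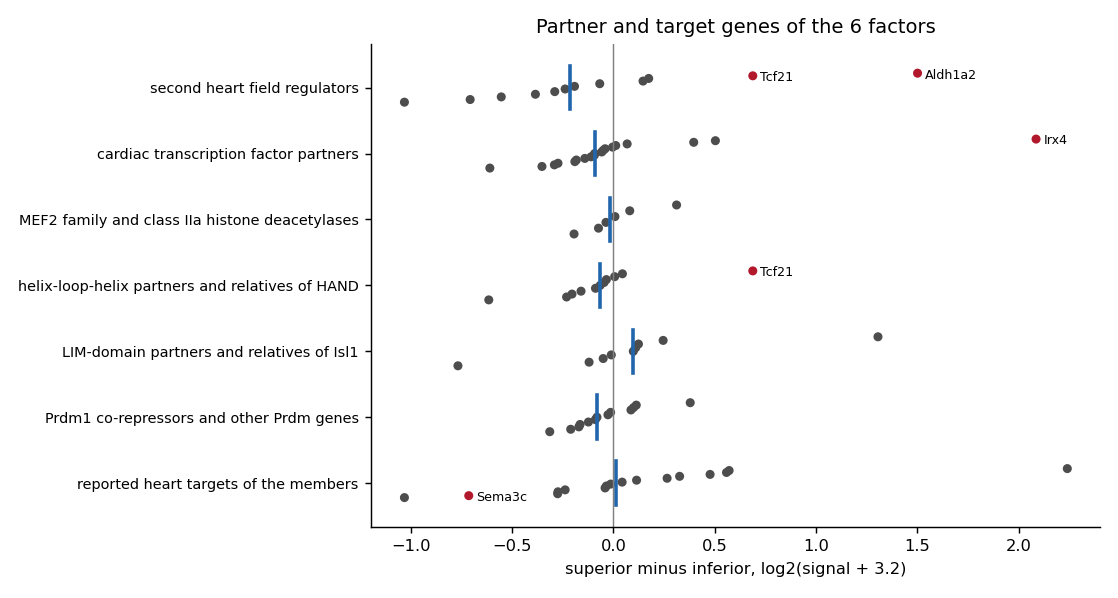
Log2 difference of superior minus inferior signal of each tested gene in 7 lists of partners and targets, with called genes in red (adjusted p at 0.05) and the list median as a blue line. Medians lie between -0.22 and 0.10, and the called genes are Tcf21 (in 2 lists), Aldh1a2, Irx4 and Sema3c.

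Markers of other cell types were spread unevenly between the regions. All 8 tested epicardial markers were higher in superior pools, 4 of them called, and the summed signal of the list ranged from 1102 to 1918 in superior and from 689 to 934 in inferior pools. Of 11 tested chamber muscle markers 10 were higher, 1 called, with sums of 20761 to 21140 in superior and 16293 to 18320 in inferior pools. The 1 lower was Ttn (-0.06 ± 0.10). Myh7 and Myl2 made up most of these chamber sums, with means of 6813 and 6046 in superior and 6017 and 4316 in inferior pools. Of 6 tested neural crest markers 5 were lower, 0 called, with sums of 929 to 1140 in superior and 1182 to 1393 in inferior pools. Most of these sums came from Erbb3 and Crabp1, with means of 400 and 509 in superior and 581 and 546 in inferior pools. The exception was Sox10, with signals of 18.8, 19.7 and 21.8 in superior pools 1, 6 and 7, against 12.1, 19.6 and 15.9 in inferior pools. Foxd3 and Tfap2b, markers of early crest, lay below background in all 6 arrays, as did Msln among the epicardial and Gja5 among the chamber markers. The part of these shifts in the Isl1, Nkx2-5 and Mef2c differences was not tested.

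Isl1 also marks motor neurons and pharyngeal endoderm. The motor neuron genes Mnx1, Lhx3 and Slc18a3 did not exceed background in any array. Other neuronal genes, Tubb3, Elavl3, Elavl4, Stmn2, Nefl and Nefm, exceeded it in all 6 arrays. Of the 5 tested, 3 were lower in superior pools and 2 higher, with 0 called. The lower ones included Elavl3 (-0.64 ± 0.19; limma adjusted p = 0.331), whose regions did not overlap, and Tubb3 (-0.36 ± 0.14; 0.432). The part of neurons in the Isl1 difference was not tested. Of the pharyngeal endoderm genes, Foxa1, Pax1 and Pax9 did not exceed background in any array. Foxa2 and Nkx2-1 exceeded it in 1 array each and Shh in 3. The epithelial genes Krt8, Krt18, Epcam and Cdh1 exceeded it in all 6 arrays. Krt8 averaged 641 in superior and 633 in inferior pools. Epcam had 26.4, 25.5 and 21.2 in superior pools 1, 6 and 7, against 27, 14.2 and 67 in inferior pools. Cdh1 had 17.1, 30 and 15.4 in superior, against 11, 12.9 and 46.7 in inferior pools. Inferior 7 was highest for both, with pool 7 differences of -1.52 for Epcam and -1.42 for Cdh1, and it was also the array with the highest Isl1 signal. Without pool 7 the Isl1 difference was -0.28, and the part of epithelial cells in it was not tested. The sums of the endoderm list overlapped, at 1149 to 1331 in superior and 942 to 1434 in inferior pools. Most of these sums came from Krt8 and from Krt18, which averaged 521 in superior and 439 in inferior pools. They therefore say little of the other genes of that list. Endothelial sums of 1646 to 2211 in superior and 1637 to 2058 in inferior pools overlapped too, as did neuronal sums of 431 to 538 in superior and 454 to 589 in inferior pools. Sums of the smooth muscle list did not, at 9877 to 11536 in superior and 9042 to 9709 in inferior pools. Most of these sums came from Acta2 and Tagln, and the part of smooth muscle cells in them was not tested. Of 5 tested smooth muscle genes 4 were higher and 1 lower (Smtn, -0.33 ± 0.22), with 0 called, and Myh11 exceeded background in 3 arrays. Erythroid sums overlapped at 13891 to 22652 in superior and 12508 to 15697 in inferior pools. Superior 6, the array with the high hybridisation control signals, had the highest endothelial, smooth muscle and erythroid sums. Its highest signal was 8610, against 5813 to 6464 in the other arrays, and the part of this array in the sums was not tested.

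Genes with the most similar profile over the 6 arrays were named by the smallest root mean square distance between log2 values, each centred on its own mean, among 11194 other genes. For Isl1 they were Zfp944, a zinc finger gene, at 0.05, Amot, an angiomotin of the Hippo pathway, at 0.06, and Fam89a at 0.07, where the median gene lay at 0.33. For Nkx2-5 they were Emilin3, a matrix glycoprotein, Sorl1, a sorting receptor, and Notch4, a Notch receptor of endothelium, all at 0.06 against a median of 0.29. For Hand1 they were Sh3kbp1, an adaptor protein, at 0.11, Cyp26a1, which breaks down retinoic acid, at 0.15, and Prtg at 0.16, against 0.50. For the brightest Mef2c probe set they were Tm6sf1, Nle1 and Bcl7c, at 0.02 to 0.03 against a median of 0.21. For Hand2 they were Ube4b, a ubiquitin ligase, Ythdc1, a reader of methylated RNA, and the splicing factor Sfpq, also at 0.02 to 0.03, against 0.20. These distances rest on 6 arrays that share their pools.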

How the data were processed

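Expression was measured on Affymetrix mouse arrays, with 1 array per pool. The authors' deposited intensity signals, on a linear scale, came from MAS5 according to the processing notes of the submitters (version not given in the sources used here). Their mean after trimming 2% at each end was 100 in every array. Arrays carry no depth, and their number limits the precision.

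Of 45101 probe sets, 64 controls were left out. The platform annotation names 1 gene for 34945 of the others, several for 932 and none for 9160, and symbols were checked by gene ID against RefSeq. Signals became log2(signal + 3.2), 3.2 being their 25th percentile. The fit used limma 3.58.1 in R 4.3.3 (eBayes with trend and robust variance), with region and pool number, which leaves 2 residual degrees of freedom. The eBayes step adds to these by borrowing variance across the tested probe sets. Fold changes are taken after this offset, so those of dim genes are understated. Titles and source names give both regions the same pool numbers. Same-numbered arrays deviated together from their region means, with correlations of 0.79, 0.43 and 0.51 across probe sets for pools 1, 6 and 7, all above the limit of 0.1, and arrays were therefore paired by number. Unlike numbers gave 0.20 at most. The fit was tested on simulated data.

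All member probe sets are named. Listed genes are named when called, otherwise the 2 with the smallest p of a list, and some others chosen after their values were seen. Members and lists were chosen with earlier results of these data known. Alternatives were the pool term, offset, dim filter, scaling, variance model and left-out pools or arrays.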

Additional observations from a re-analysis of the deposited data

How the results depend on the processing

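Each of the 11 tested member probe sets was recomputed under up to 18 alternatives, giving 197 values, of which 178 kept their sign and side of the threshold, 19 turned sign and 0 passed it. No member probe set was called under any alternative. Isl1, Nkx2-5 and the Mef2c probe sets 1421027_a_at, 1451506_at and 1451507_at were lower in superior pools throughout. Without the pool term (no replicate block), the estimates were as in the paired fit and the lowest unadjusted p of a member was 0.106. The differences of Hand1, both Hand2 probe sets and Mef2c 1424852_at and 1421028_a_at turned sign under some alternatives. Under cyclic loess Mef2c 1424852_at gave -0.0161 and Hand2 1422221_at 0.00633, under quantile normalization Hand2 1422221_at gave 0.00204, and under 75th percentile scaling Hand2 1436041_at gave 0.00923. The differences without 1 pool or, with no pool term, without 1 array ranged from -0.0767 to 0.124 for Mef2c 1424852_at, -0.388 to 0.0418 for Mef2c 1421028_a_at, -0.211 to 0.438 for Hand1 1417525_at, -0.112 to 0.0444 for Hand2 1436041_at and -0.451 to 0.345 for Hand2 1422221_at. They also ranged from -0.467 to -0.120 for Isl1 1450723_at, -0.590 to -0.203 for Isl1 1422720_at, -0.438 to -0.167 for Nkx2-5, -0.527 to -0.131 for Mef2c 1421027_a_at, -0.373 to -0.0726 for 1451506_at and -0.430 to -0.119 for 1451507_at. Over all genes, 36 probe sets were called in the paired fit, 0 without the pool term and 0 with plain variance moderation (no trend, not robust). An offset of 1 gave 22, testing every probe set gave 1, and testing the brightest 25% gave 2. Leaving out 1 pool gave from 9 to 231, with 9 without pool 1, 231 without pool 6 and 116 without pool 7. The causes were not tested. The 3 dim probe sets lie near background, which limits what can be said of Prdm1.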
